A study of Rattus norvegicus with 24 samples.

Results

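The genes described here are 8 components of the autophagy machinery, Ulk1, Becn1, Tfeb, Map1lc3a, Map1lc3b, Gabarapl1, Sqstm1 and Bnip3, chosen by name from the 15273 genes of a transcript table of rat tibialis anterior muscle. All 8 were found, in 15 transcript rows that were summed per gene, and all 8 passed the filter on low values. RNA was sequenced from both tibialis anterior muscles of 12 adult male Wistar rats that carried an implanted pulse generator for the left hindlimb. The left muscle was trained once a day by nerve stimulation for 2, 10, 20 or 30 days, 3 rats per time point, and both muscles were taken about an hour after the last session, so a trained value joins the state of the muscle with its response to that session. The right muscle was not stimulated and is called contralateral. Every control muscle therefore came from an animal that was itself training the other leg and had undergone the same surgery, and no muscle of an untrained rat was analysed here. Each trained group of 3 was set against all 12 contralateral muscles, and the blocked fit set each trained muscle against the contralateral muscle of its own rat.

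Autophagy encloses cytoplasm, protein aggregates or organelles in a double membrane, the autophagosome, which fuses with the lysosome. A kinase complex built on Ulk1 starts the process, a lipid kinase complex that contains Becn1 marks the membrane, proteins of the ATG8 family (the LC3 and GABARAP proteins) are coupled to that membrane, and receptors such as p62 (Sqstm1) and Bnip3 hold the cargo to them. In skeletal muscle the pathway clears damaged mitochondria and proteins and is induced by fasting and endurance exercise, and several of its genes are under the control of FoxO factors and of Tfeb.

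Values are transcripts-per-million-type (TPM-type) values, already scaled by the authors for transcript length and to 1 total per sample, and divided here by a factor per sample (range 0.778 to 1.14) that brings the samples to a common median. They keep no sequencing depth. Log2 fold changes are on the log2(value + 1) scale, trained over contralateral, and a gene is called where the adjusted p of the limma test over 11196 genes was under 0.05. Mitochondrially encoded transcripts made up 28.1% to 44.2% of the contralateral totals and 23.7% to 44.6% of the trained totals, and in the trained muscles of 30 days they made up 40.4% to 44.6%. The 6 markers of fast muscle fibres found in the table summed to between 80161 and 93245 in the contralateral muscles. In bulk muscle, fewer cells of a type and less RNA per cell cannot be told apart.

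Ulk1 was lower in the trained muscle at every time point. Its product is the serine/threonine kinase that starts autophagosome formation, and the gene lies at chr12:51908448-51934703 on the plus strand (rn6, as are all gene positions below). The value in the 12 contralateral muscles ranged from 9.93 to 13.9 with a median of 11.2. In the trained muscles it was 8.07, 5.16 and 7.54 at 2 days, 7.36, 8.42 and 8.87 at 10 days, 8.16, 9.74 and 8.48 at 20 days, and 7.62, 8.62 and 7.62 at 30 days. All 12 trained muscles lay below all 12 contralateral muscles, a pattern seen in this direction in 1.3% of tested genes. The log2 fold change was -0.68 (SE 0.11, limma adjusted p = 6.79e-05) at 2 days, -0.45 (SE 0.11, adjusted p = 0.00395) at 10 days, -0.36 (SE 0.11, adjusted p = 0.0238) at 20 days and -0.49 (SE 0.11, adjusted p = 0.00313) at 30 days. Genes called lower at all 4 time points were 2.95% of those tested. Within the rat, the trained muscle was lower in 12 of 12 animals (6.57% of tested genes), with log2 ratios from -0.84 to -0.22, and the average over the 12 pairs was -0.50 (SE 0.064, limma with animal as a block, adjusted p = 1.45e-05). On the values as deposited, the differences at 10 and 20 days were -0.34 (adjusted p = 0.104) and -0.36 (adjusted p = 0.101) and were not called. The difference at 20 days was also not called without trained rat 1 (-0.31, adjusted p = 0.125) or rat 3 (-0.34, adjusted p = 0.0878) of that group.

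Becn1, whose product beclin 1 is the scaffold of the class III phosphatidylinositol 3-kinase complex, was lower by a smaller amount. Its gene is at chr10:89209944-89225298 on the minus strand, taking the longest deposited row. The contralateral muscles held 28.2 to 44.9 with a median of 35.3. The trained muscles held 29.0, 29.3 and 30.4 at 2 days, 28.8, 30.5 and 26.9 at 10 days, 33.1, 24.97 and 27.2 at 20 days, and 26.7, 28.1 and 26.8 at 30 days, so trained values overlapped the low end of the contralateral range until 20 days and all lay below it at 30 days, as for 6.08% of tested genes. Against all contralateral muscles the log2 fold change was -0.25 (SE 0.11, limma adjusted p = 0.0914) at 2 days, -0.29 (adjusted p = 0.050006, just above the threshold) at 10 days, -0.32 (adjusted p = 0.0444) at 20 days and -0.37 (adjusted p = 0.0199) at 30 days. With animal as a block the calls changed places: 2 days was called (-0.43, adjusted p = 0.0417) and 10 days (adjusted p = 0.153), 20 days (adjusted p = 0.312) and 30 days (adjusted p = 0.198) were not. The blocked call at 2 days was lost without any 1 of the 3 rats of that group (adjusted p = 0.0923, 0.267 and 0.0868). Over the 12 pairs the average was -0.31 (SE 0.067, adjusted p = 0.00159), and 11 of 12 rats had the lower value in the trained muscle.

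Most of the Becn1 difference lay in 1 of its 6 deposited rows, which were looked at separately after their values were seen. The Becn1-201 row, protein coding and the most abundant, averaged 18.5 ± 3.60 (SD, n = 12) in the contralateral and 17.1 ± 3.08 (SD, n = 12) in the trained muscles, a log2 difference over the pairs of -0.10 (limma over 13452 rows, adjusted p = 0.500). The Becn1-206 row, also protein coding, averaged 12.3 ± 2.66 (SD, n = 12) in the contralateral and 7.42 ± 2.13 (SD, n = 12) in the trained muscles, a difference over the pairs of -0.68 (SE 0.098, adjusted p = 7.99e-05). Becn1-206 ranged from 5.54 to 9.94 at 2 days, 4.37 to 9.34 at 10 days, 5.39 to 10.996 at 20 days and 5.22 to 7.40 at 30 days, against 8.92 to 17.2 in the contralateral muscles. Against all contralateral muscles this row was called lower at 2, 10 and 30 days and not at 20 days (limma adjusted p = 0.106). With animal as a block it was called at 2 and 10 days and not at 20 days (adjusted p = 0.118) or 30 days (adjusted p = 0.123). Both rows span nearly the same stretch of the genome, and the split of reads between overlapping transcripts is an estimate made by the authors' quantification. When the gene was represented by its most abundant row alone, Becn1 was not called at any time point.

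**Figure D1:**
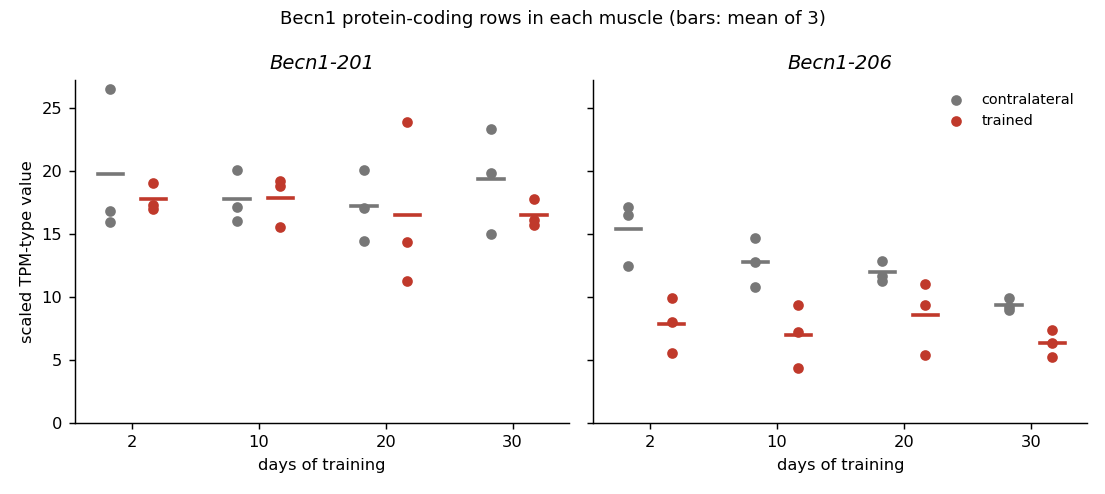
Scaled TPM-type value (vertical axis, from 0) of the Becn1-201 and Becn1-206 rows in each muscle by days of training; grey points are contralateral and red points trained muscles, and bars are means of 3. The Becn1-201 points of both legs share a range, while the mean of Becn1-206 lies lower in the trained group at each time point, at 7.42 against 12.3 over all days. The difference of Becn1-206 at 20 days was not called.

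Among the ATG8 genes, Gabarapl1 was higher in trained muscle at every time point while the LC3 genes were not. Gabarapl1 encodes a GABARAP-type ATG8 protein and is a known FoxO target in muscle; it lies at chr4:163293724-163302859 on the plus strand. The contralateral muscles held 24.95 to 47.1 with a median of 31.0. The trained muscles held 53.9, 60.6 and 60.3 at 2 days, 65.4, 73.7 and 48.1 at 10 days, 51.7, 50.9 and 43.5 at 20 days, and 44.9, 48.6 and 47.3 at 30 days. All 3 trained muscles lay above all contralateral muscles at 2 and at 10 days, as did 2 of 3 at 20 and at 30 days; for all 3 muscles, the share of tested genes with the same pattern was 8.57% at 2 days and 10% at 10 days. The log2 fold change was 0.83 (SE 0.14, limma adjusted p = 0.000107) at 2 days, 0.91 (SE 0.14, adjusted p = 3.51e-05) at 10 days, 0.58 (SE 0.14, adjusted p = 0.00501) at 20 days and 0.53 (SE 0.14, adjusted p = 0.0104) at 30 days. Genes called higher at all 4 time points were 5.24% of those tested. The value was higher in the trained muscle of 12 of 12 rats, with log2 ratios from 0.35 to 1.00 and an average of 0.71 (SE 0.068, adjusted p = 6.33e-07 with animal as a block), 1.64-fold. Genes higher in 12 of 12 animals were 8.45% of those tested. On the values as deposited, the 30 day difference was 0.31 (adjusted p = 0.130), at which time point that scaling put the median of all genes at -0.18 and the mitochondrial share of the trained muscles was at its highest. The 30 day call was also lost without trained rat 2 of that group (0.50, adjusted p = 0.0579).

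Map1lc3a and Map1lc3b encode LC3A and LC3B, the ATG8 proteins whose lipid-bound form is the usual marker of autophagosomes. Map1lc3a (chr3:150801289-150802936, plus strand) had 87.8 to 153.9 in the contralateral muscles with a median of 101.5. Its trained values were 84.4, 75.8 and 87.5 at 2 days, 74.8, 95.6 and 86.8 at 10 days, 70.5 to 125.8 at 20 days and 73.7 to 98.9 at 30 days. Only the 2 day group lay wholly below the contralateral range, a pattern held in this direction by 6.18% of genes at that time point. Map1lc3b (chr19:53635688-53643965 for its main row, plus strand) had 20.7 to 37.7 in the contralateral muscles with a median of 23.7, and 18.04, 18.97 and 20.8 in the trained muscles of 2 days, of which 2 lay below that range. Later trained values of Map1lc3b, 17.2 to 28.8, overlapped the contralateral range.

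With all 12 contralateral muscles as control, neither LC3 gene was called at any time point. The log2 fold changes at 2, 10, 20 and 30 days were -0.34, -0.29, -0.07 and -0.25 for Map1lc3a and -0.35, -0.22, -0.08 and -0.04 for Map1lc3b. With animal as a block both were called lower at 2 days, Map1lc3a by -0.63 (SE 0.16, limma adjusted p = 0.0125) and Map1lc3b by -0.61 (SE 0.15, adjusted p = 0.0121). Rat 2 of the 2 day group had the highest contralateral value of all 12 for both genes, 153.9 and 37.7, and the lowest ratios, -1.01 and -0.96. Without that rat the blocked differences were -0.44 (adjusted p = 0.166) for Map1lc3a and -0.43 (adjusted p = 0.159) for Map1lc3b, which were not called. Over the 12 pairs the averages were -0.24 (adjusted p = 0.0642) and -0.17 (adjusted p = 0.184), and the former was called without the block (adjusted p = 0.0468) and without rat 1 (-0.28, adjusted p = 0.0412) or rat 2 (-0.30, adjusted p = 0.0163) of 20 days. Map1lc3b at 2 days was called against all contralateral muscles without that of rat 3 of 20 days (-0.37, adjusted p = 0.0488), and Map1lc3a at 30 days on the values as deposited (-0.47, adjusted p = 0.0139). Map1lc3a over 12 pairs was likewise called on the values as deposited (-0.24, adjusted p = 0.0481).

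The balance between the ATG8 genes is given as a ratio, which does not depend on the scaling between samples and was computed after the values were seen. Gabarapl1 over Map1lc3b averaged 1.33 ± 0.250 (SD, n = 12) in the contralateral muscles. In the trained groups of 2, 10, 20 and 30 days it was 3.03 ± 0.146, 3.00 ± 0.828, 2.09 ± 0.170 and 1.98 ± 0.368 (SD, n = 3 each), and it was higher in the trained muscle of 12 of 12 rats. Gabarapl1 over Map1lc3a ran from 0.193 to 0.400 in the contralateral and from 0.405 to 0.874 in the trained muscles. These ranges did not overlap, by a small margin. Gabarapl1 by itself was higher in the trained muscle of 12 of 12 rats, so its 2 ratios are not separate evidence. The share of other gene pairs with such patterns was not computed. Map1lc3a over Map1lc3b was 4.24 ± 0.334 and 4.08 ± 0.501 (SD, n = 12 each), higher in the trained muscle of 5 of 12 rats.

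Promoters from the RefSeq table (assembly GRCr8, a later build than that of the gene positions above, matched by gene symbol) were found for 6 of the 8 genes; Map1lc3a and Becn1 had no entry. Windows of 250 bases before to 50 after the start were searched on both strands for CACGTG, the E-box of the Tfeb and Myc families, TGTTTAC, a FoxO-type site, TGACTCA, the AP-1 site, and TGACGT, a shortened cyclic AMP response element. The E-box was found in Bnip3 alone of the 6, starting 99 bases before the start, and in 6.42% of 33469 promoters. The AP-1 letters were found in Map1lc3b alone, read on the opposite strand and starting 17 bases before the start, and in 4.63% of promoters. The FoxO-type letters (3.78% of promoters) and TGACGT (7.94%) were in none of the 6 windows. The 200 bases before the start are shown for the ATG8 gene that rose and the 2 genes with a match, 5′ to 3′ on the strand of the gene, with the matched letters in capitals. Gabarapl1 is from chr4:164666132-164666331 (plus strand), Map1lc3b from chr19:66574395-66574594 (plus strand) and Bnip3 from chr1:203154963-203155162 (minus strand).
Gabarapl1 promoter: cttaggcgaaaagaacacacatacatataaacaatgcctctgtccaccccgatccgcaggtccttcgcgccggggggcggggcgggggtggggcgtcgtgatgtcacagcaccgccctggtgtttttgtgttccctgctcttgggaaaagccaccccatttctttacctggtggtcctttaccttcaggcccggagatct
Map1lc3b promoter: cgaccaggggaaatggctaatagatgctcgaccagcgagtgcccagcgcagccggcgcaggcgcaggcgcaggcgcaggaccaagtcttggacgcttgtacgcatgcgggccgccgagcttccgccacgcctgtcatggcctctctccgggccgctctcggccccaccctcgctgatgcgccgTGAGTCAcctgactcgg
Bnip3 promoter: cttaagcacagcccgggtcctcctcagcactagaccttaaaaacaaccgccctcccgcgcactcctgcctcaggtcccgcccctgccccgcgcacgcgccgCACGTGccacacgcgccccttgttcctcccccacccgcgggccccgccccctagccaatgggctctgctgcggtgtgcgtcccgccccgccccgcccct
Gabarapl1, the member with the largest rise, thus held none of the 4 motifs in this window in the exact letters searched. Variant forms of these sites were not searched, so the result does not show that the Gabarapl1 promoter lacks a FoxO-type site. G and C made up 56.3% of the whole Gabarapl1 window against 65.7% in Map1lc3b and 71.3% in Bnip3.

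**Figure D2:**
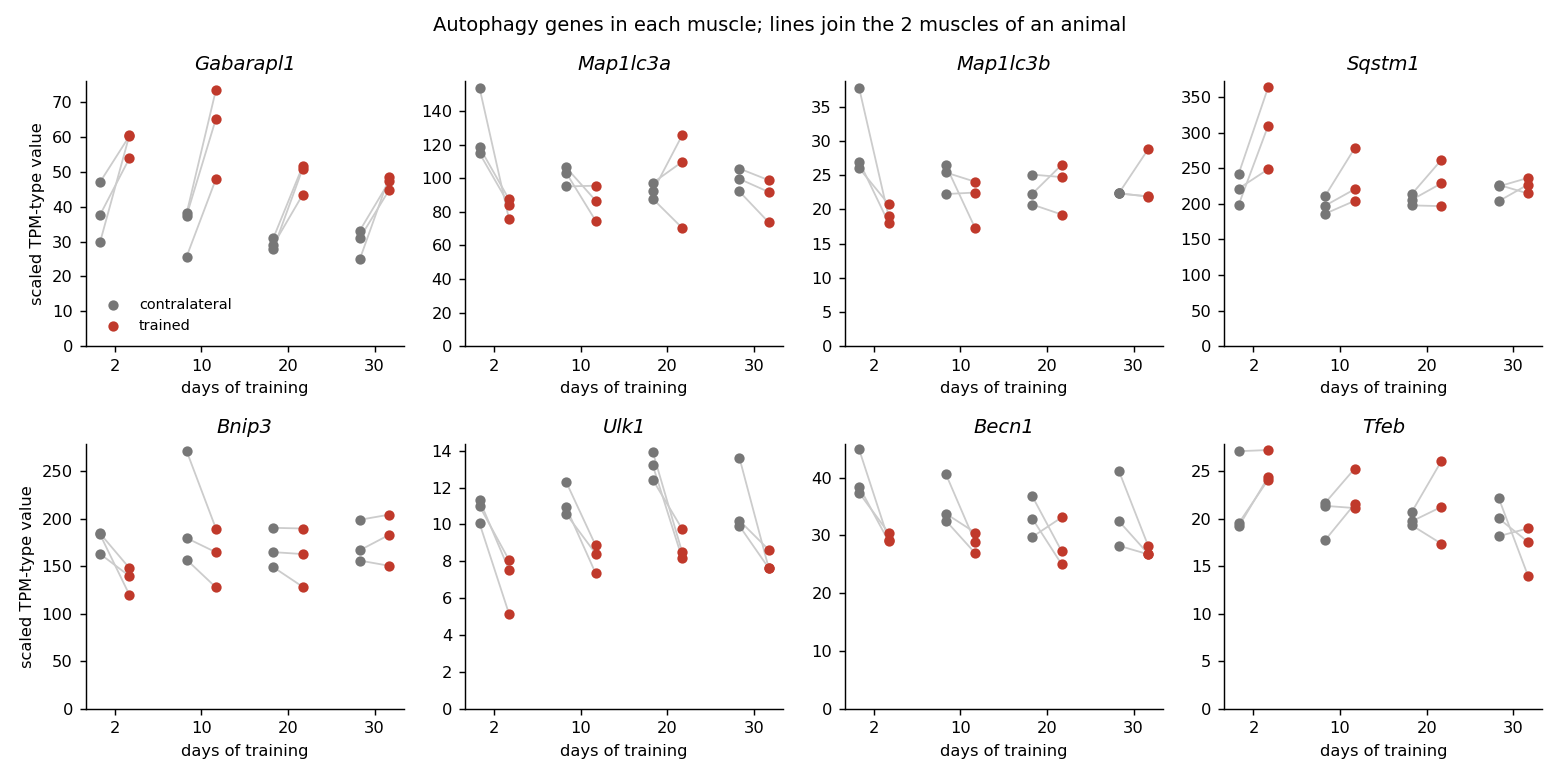
Scaled TPM-type value (vertical axes, from 0) of the 8 genes in each of the 24 muscles by days of training; grey points are contralateral and red points trained muscles, and a line joins both muscles of a rat. Every line rises for Gabarapl1 and falls for Ulk1, while Sqstm1 stands above the contralateral muscles at 2 days (249 to 364 against 186 to 242), as do 8.57% of tested genes.

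Of the cargo receptors, Sqstm1 was higher after 2 days and Bnip3 lower. Sqstm1 encodes p62, which binds ubiquitinated cargo and LC3 and is itself degraded by autophagy, so its mRNA and its protein need not move together. Its gene is at chr10:35704730-35716295 on the minus strand, and the end of the Mrnip-201 row on the plus strand (chr10:35680658-35704777) overlaps it. The library kit keeps strand, but whether the counting used it is not given in the sources used here, so reads in the overlap are uncertain. The contralateral muscles held 186 to 242 with a median of 209. The trained muscles held 249, 364 and 309.9 at 2 days, all above the contralateral range, as for 8.57% of tested genes. They held 221, 279 and 204 at 10 days, 229, 262 and 197 at 20 days, and 237, 227 and 215 at 30 days. The log2 fold change at 2 days was 0.53 (SE 0.11, limma adjusted p = 0.000641), 1.44-fold, and with animal as a block 0.46 (adjusted p = 0.0157). Without rat 2 of that group the blocked value was 0.40 (adjusted p = 0.134), and without rat 3 it was 0.38 (adjusted p = 0.133). At 10, 20 and 30 days the differences were 0.14, 0.11 and 0.10 with adjusted p from 0.349 to 0.549 and were not called. The average over the 12 pairs was 0.22 (SE 0.069, adjusted p = 0.0166), with 10 of 12 rats higher, and 0.22 (adjusted p = 0.0857) on the values as deposited.

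Bnip3, an outer mitochondrial membrane receptor for mitophagy and a target of hypoxia-inducible factor, lies at chr1:211248098-211265283 on the minus strand. The contralateral muscles held 149 to 271 with a median of 173. The trained values of 2 days, 148, 119.9 and 139.7, all lay below that range, the first of them barely. This pattern was held in this direction by 6.18% of tested genes at 2 days. The trained values were 127.7 to 189 at 10 days, 128 to 189.8 at 20 days and 150.5 to 204 at 30 days, mostly within the contralateral range. The log2 fold change at 2 days was -0.39 (SE 0.15, limma adjusted p = 0.0465), and -0.38 (adjusted p = 0.0325) with animal as a block. The blocked call was lost without any 1 of the 3 rats of 2 days (adjusted p = 0.0616, 0.277 and 0.0605). The call of Bnip3 at 2 days against all contralateral muscles was marginal. With a pseudocount of 0.1 the adjusted p was 0.0552, with no filter on low values 0.0542 and with the most abundant row per gene 0.0504. Against the 3 contralateral muscles of the same time point, with no block, the adjusted p was 0.171, and on the values as deposited the difference was -0.28 (adjusted p = 0.211). The call was also lost when any of 7 single muscles was left out, which were trained rats 2 (-0.31, adjusted p = 0.277) and 3 (-0.42, adjusted p = 0.104) of 2 days and the contralateral muscles of rats 1 and 2 of 2 days, rat 2 of 10 days, rat 3 of 20 days and rat 2 of 30 days (-0.38 to -0.39, adjusted p from 0.0537 to 0.0618). At the later time points the differences were -0.17, -0.17 and -0.0026 and were not called. Over the 12 pairs the average was -0.18 (SE 0.070, adjusted p = 0.0457), which was no longer called without any 1 of the 3 rats of 2 days, the 3 of 10 days or rat 2 of 20 days (-0.19 to -0.14, adjusted p up to 0.0966). This average was also not called without the block (limma adjusted p = 0.142).

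Tfeb, the transcription factor that drives lysosomal and autophagy genes through E-box sites, was not called at any single time point, and its level differed between the trained groups by an F test that was close to the threshold. The gene is at chr9:15207822-15214597 on the minus strand. The contralateral muscles held 17.8 to 27.1 with a median of 19.9. The trained muscles held 24.1, 27.2 and 24.4 at 2 days, 21.1, 25.3 and 21.6 at 10 days, 21.2, 26.1 and 17.4 at 20 days, and 18.98, 17.6 and 13.999 at 30 days. The 3 values at 2 days thus all lay above the 3 at 30 days, a pattern whose share among all tested genes was not computed. Against the contralateral muscles the log2 fold changes were 0.29 (SE 0.11, limma adjusted p = 0.0620), 0.14 (adjusted p = 0.406), 0.05 (adjusted p = 0.789) and -0.28 (adjusted p = 0.0927). On the values as deposited the difference was called at 2 days (0.40, adjusted p = 0.0242) and at 30 days (-0.49, adjusted p = 0.00752), and it was also called at 2 days without the contralateral muscle of rat 2 of that time point (0.32, adjusted p = 0.0210). An F test of the 4 trained groups gave an adjusted p of 0.0481 for Tfeb, and 12% of tested genes passed that test. Tfeb did not pass it with a pseudocount of 0.1 (adjusted p = 0.0596), with the most abundant row per gene (adjusted p = 0.0542), or without any 1 of 9 of the 12 trained muscles (adjusted p up to 0.2496), which were the 3 of 2 days, the 3 of 10 days, rat 1 of 20 days and rats 2 and 3 of 30 days. The direct contrast of 30 with 2 days was -0.56 (SE 0.15, adjusted p = 0.0101). With animal as a block, that is for the trained-over-contralateral difference, the F test gave an adjusted p of 0.469 and the contrast -0.46 (adjusted p = 0.228), neither of which was called.

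Tfeb was the only 1 of the 8 to pass the F test between trained groups on the scaled values. Sqstm1 came next with an adjusted p of 0.0792, and its contrast of 30 with 2 days was -0.43 (SE 0.14, limma adjusted p = 0.0362), or -0.41 (adjusted p = 0.209) with animal as a block. On the values as deposited the F test was passed by Tfeb (adjusted p = 0.00189), Sqstm1 (adjusted p = 0.00360) and Gabarapl1 (adjusted p = 0.0218). On the scaled values Gabarapl1 had an adjusted p of 0.320. For Ulk1 it gave 0.390. Between the 4 contralateral groups 0 of 8 genes passed the limma F test, 0 of 8 had an unadjusted p under 0.05 (the lowest was 0.0609, for Map1lc3a), and 0.152% of tested genes passed.

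Set together, 4 of the 8 genes were called at 2 days, with Gabarapl1 and Sqstm1 higher and Ulk1 and Bnip3 lower, where 28.9% of all tested genes were called. At 10 days 2 of 8 were called, Gabarapl1 higher and Ulk1 lower, against 28.9% of all genes. At 20 days 3 of 8 were called against 21.4%, and at 30 days 3 of 8 against 20.6%, in both cases Gabarapl1 higher and Ulk1 and Becn1 lower. The median log2 fold change of the 8 was -0.30, -0.19, -0.08 and -0.15 at the 4 time points, where the median of all tested genes lay between -0.03 and -0.01. Over the 12 pairs 5 of 8 were called, 2 higher and 3 lower, against 40.1% of all genes. With animal as a block, 7 of 8 were called at 2 days, all but Tfeb, against 21.6% of all genes. That count rested on rat 2 of the 2 day group: without it 0 of 8 were called by the blocked limma fit, 5 of 8 had an unadjusted p under 0.05, and 8.65% of all genes were called. The blocked difference of Gabarapl1 was then 0.43 (adjusted p = 0.0955) and that of Ulk1 -0.47 (adjusted p = 0.0936). Without rat 1 the blocked count was 5 of 8, against 21.7% of all genes. Without rat 3 it was 4 of 8, against 11.7% of all genes. The comparisons of the 4 time points share their 12 control muscles.

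**Figure D3:**
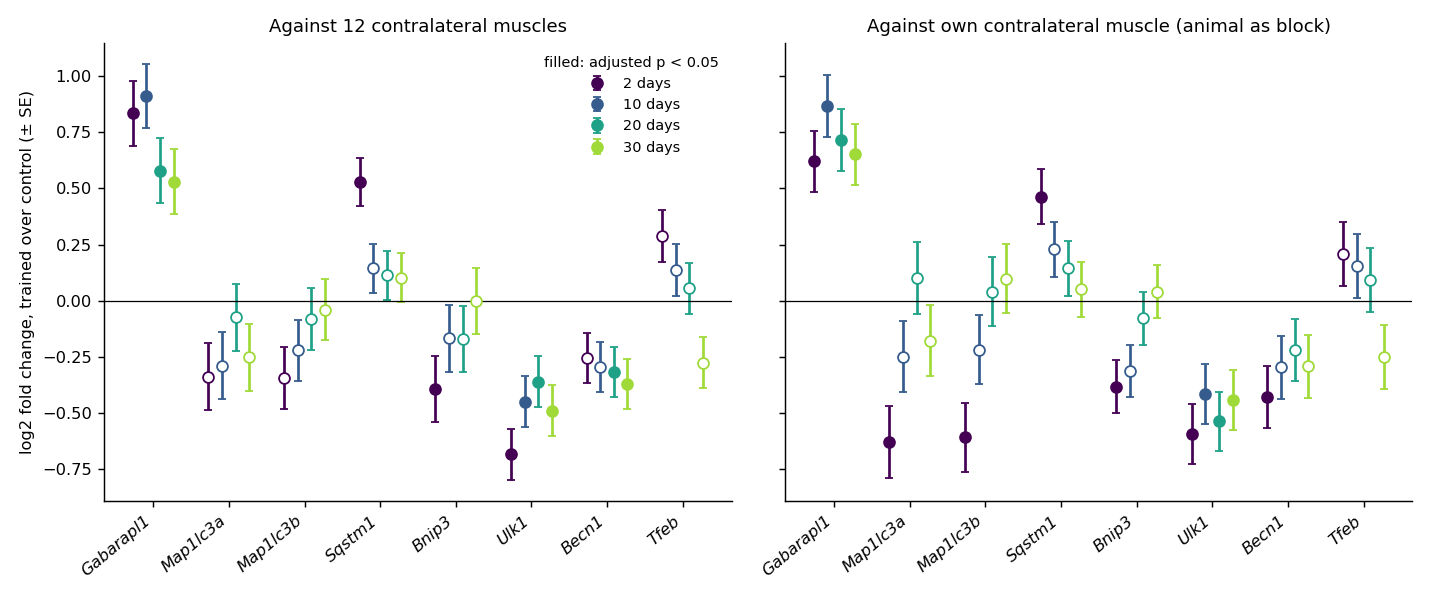
Log2 fold change, trained over contralateral, with its standard error (vertical axis) for the 8 genes; colours are days of training and filled points passed an adjusted p of 0.05. The left panel sets each trained group of 3 against 12 contralateral muscles and the right panel against the contralateral muscles of the same rats: Gabarapl1 and Ulk1 are filled at all 4 time points in both, and Map1lc3a, Map1lc3b and Becn1 at 2 days are filled in the right panel alone.

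A longer list of 53 other autophagy genes, which holds no member, showed more genes lower than higher. Of these, 51 were tested, and Atg4a and Retreg1 were not analysed here. At 2 days 3 were higher (5.88%) and 14 lower (27.5%), where 15.4% of all genes were higher and 13.5% lower. At 10 days 4 were higher (7.84%, against 15.6% of all genes) and 14 lower (27.5%, against 13.3%). At 20 days 3 were higher (against 11.7%) and 11 lower (21.6%, against 9.64%), and at 30 days 3 were higher (against 11.1%) and 6 lower (11.8%, against 9.46%). With animal as a block the counts were 5 higher and 9 lower at 2 days, 3 and 11 at 10 days, 3 and 7 at 20 days, and 0 and 4 at 30 days. The blocked fit called 21.6%, 20.1%, 17.4% and 12.3% of all genes, both directions together. Its shares by direction are not given here, so the blocked counts of lower genes have no matching share beside them. Over the 12 pairs 7 were higher and 18 lower, with a median of -0.11 over the 51 genes, where 19.7% of all genes were higher and 20.5% lower.

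Within the initiation machinery Ulk2, the paralogue of Ulk1, was lower at all 4 time points, with log2 fold changes from -0.64 to -0.51. It averaged 16.1 ± 1.64 (SD, n = 12) in the contralateral and 10.3 ± 1.26 (SD, n = 12) in the trained muscles. Rb1cc1 was called lower over the 12 pairs, and Atg13 and Atg101, the other parts of the kinase complex, were not. Nrbf2, a subunit of the Becn1-containing complex, was lower by -0.68 at 10 days (limma adjusted p = 0.00114) and was not called at 30 days, and the other 6 listed genes of that complex were not called over the pairs. At 10 days Pik3c3, the lipid kinase itself, was lower by -0.42 (adjusted p = 0.000931) and Atg14 by -0.28 (adjusted p = 0.0326), and with animal as a block neither was called (adjusted p = 0.0551 and 0.294). Atg9a, the membrane protein of the vesicles that seed the autophagosome, fell from 37.5 ± 3.88 to 26.7 ± 3.65, and the lipid transfer gene Atg2a fell from 7.06 ± 0.806 to 4.78 ± 0.657 (SD, n = 12 each). Both were lower at all 4 time points. Of the 4 listed phosphoinositide-binding genes of the same stage, Wipi2 (-0.11, limma adjusted p = 0.283) and Wdr45b (0.12, adjusted p = 0.182) were not called over the pairs. Wipi1 was higher by 0.64 at 2 days (adjusted p = 0.00132) and 0.51 at 10 days (adjusted p = 0.00742), and Wdr45 by 0.39 at 20 days (adjusted p = 0.0173).

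In the conjugation system Atg7, the enzyme that activates ATG8 proteins, was higher at all 4 time points by 0.76, 0.72, 0.57 and 0.46 (limma adjusted p from 5.81e-05 to 0.00907), although with animal as a block the 30 day difference was 0.35 (adjusted p = 0.160). Atg12, which Atg7 also activates, was lower at all 4, by -0.50 to -0.23, and with animal as a block was not called at 2 days (adjusted p = 0.113) or 30 days (adjusted p = 0.0634). Of the other GABARAP-type genes, Gabarap was higher by 0.34 at 30 days (adjusted p = 0.0272) and, with animal as a block, by 0.28 (adjusted p = 0.286). Gabarapl2, chosen after its values were seen, was higher by 0.49 at 2 days (adjusted p = 0.00154) and 0.38 at 10 days (adjusted p = 0.0107), and with animal as a block by 0.41 (adjusted p = 0.0281) and 0.39 (adjusted p = 0.0339). Pink1, the kinase that marks damaged mitochondria, was lower at all 4 time points by -0.63 to -0.44, from 385 ± 31.4 to 268 ± 37.6 (SD, n = 12 each), and kept its calls with animal as a block (adjusted p from 0.00529 to 0.0312). Rab7a, the small GTPase of late endosomes, was lower at all 4, from 129 ± 11.96 to 101 ± 6.34 (SD, n = 12 each), and with animal as a block was not called at 20 days (adjusted p = 0.153) or 30 days (adjusted p = 0.0932). Ccpg1, a receptor for endoplasmic reticulum, had the largest fall of the list at 2 days, -0.73 (adjusted p = 6.88e-05), and -0.03 (adjusted p = 0.883) at 30 days.

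**Figure D4:**
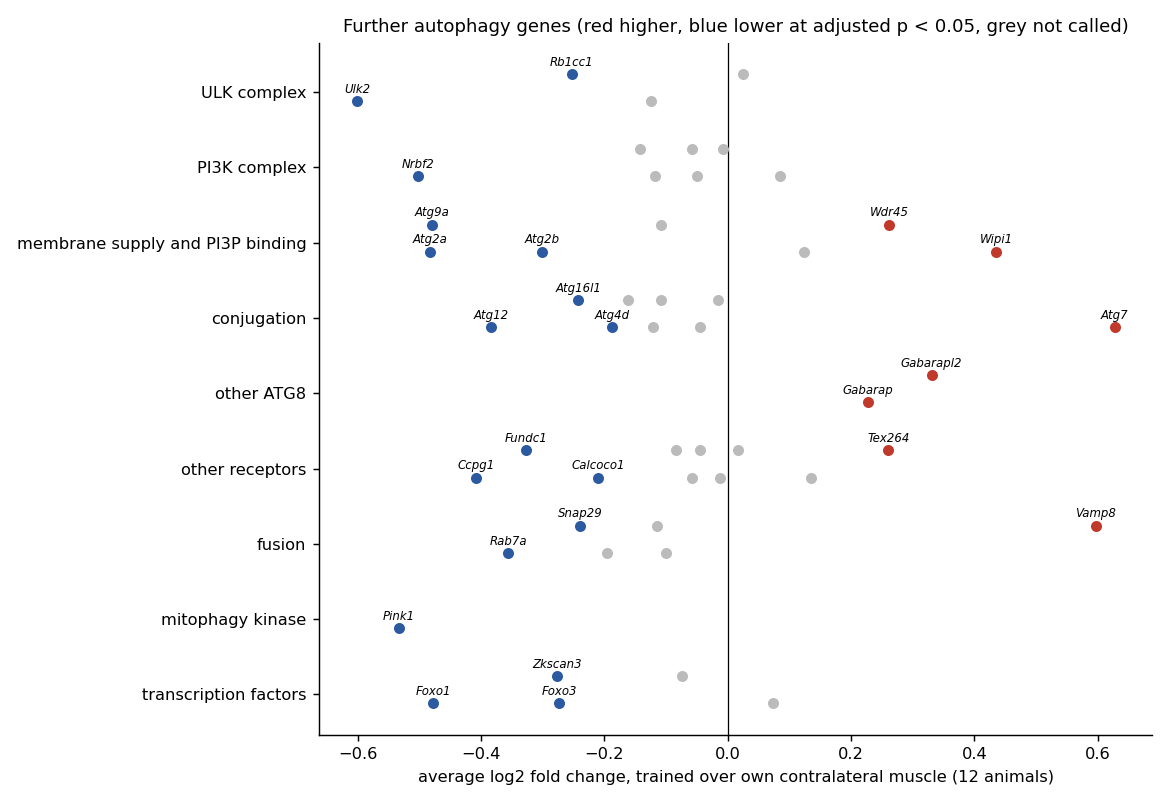
Average log2 fold change of trained over own contralateral muscle across 12 rats (horizontal axis) for 51 further autophagy genes by functional group (vertical axis); red points were called higher, blue lower and grey not called. Called genes are named: 18 lie left of 0, led by Ulk2, and 7 to the right, led by Atg7, with both further ATG8 genes among the latter.

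The genes whose trained-over-contralateral log2 ratios across the 12 rats came closest to those of the members called at 2 or more time points were taken by root mean square difference among 3840 or 3841 genes of mean value 10 or more. For Gabarapl1 they were Ctsh (0.190), which encodes the lysosomal protease cathepsin H, Dnaja4 (0.200), an HSP40 co-chaperone, and Mgrn1 (0.201), a ubiquitin ligase. For Ulk1 they were Thra (0.123), a thyroid hormone receptor, Dennd4b (0.138) and LOC294154 (0.140). For Becn1 they were Ptges3l (0.0890), Fbxo22 (0.108) and Sh3bgr (0.116). These are log2 distances over 12 rats and describe likeness only.

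Markers of some other cell types differed between the legs beside these results. The 7 macrophage and other leukocyte markers summed to 4.48 to 13.96 in the contralateral and 15.1 to 41.5 in the trained muscles, with no overlap. Of the 6 that were tested, 4, 5, 6 and 6 were called higher at the successive time points, and Cd68 was listed at 0 in at least 1 contralateral muscle. The 5 fibroblast markers summed to 74.6 to 253 in the contralateral and 301 to 982 in the trained muscles, with 4, 5, 5 and 5 called higher. The 6 fast fibre markers summed to 57776 to 97586 in the trained muscles, with 1, 3, 3 and 2 called lower and 2 higher at 10 days. Of 3 endothelial markers, 1 was called lower at 2 days and 1 higher at each later time point. Of 2 smooth muscle markers, 1 was called higher at 2 and at 10 days, as was the 1 tested satellite cell marker. Of 2 Schwann cell markers, 1 was called lower at 30 days, and the 2 adipocyte markers were not called at any time point. Fibroblast and leukocyte markers thus rose at the same time points at which Gabarapl1 was higher and Ulk1 lower, and their part in those differences was not tested.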

How the data were processed

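Both tibialis anterior muscles of 12 rats gave 24 RNA-seq libraries (poly-A selected, directional kit). The authors aligned reads with STAR in Partek to rn6, per the labels, and deposited TPM-type values for 20027 transcripts with 1 total per sample (634431), so depth cannot be read from them and the precision it gives is unknown. A second deposited table, gene-level signal for 4635 genes, served only as an alternative chosen after seeing the data; another file holds the authors' own comparisons (p-values and ratios) and was not used. The files hold no counts, so no count test was run.

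Median-of-ratios factors were taken from the 16230 transcripts above 0 everywhere, the rescaled values summed per gene, and genes reaching 1 in 3 or more samples kept. The log2(value + 1) data entered limma 3.58.1 (R 4.3.3) as 5 groups, Benjamini-Hochberg adjustment over all tested genes and a threshold of 0.05. Further fits took animal as a block. Both muscles came from the same rat, and deviations from the group means correlated within a rat (median r 0.174, 12 pairs, 0.0277 to 0.343) more than between rats (median r -0.00964, 132 pairs, -0.312 to 0.296). The 2 ranges overlapped. No 2 of the 24 libraries were identical. The fit was tested on simulated data. Tables were made with Python 3.11.15 and pandas 2.3.3.

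The members and lists were chosen with earlier results of these data known. A gene of the longer list is not reported here. All 8 members were named; of the further list, genes called in 1 direction at all 4 time points and the 2 largest rises and falls per time point among called genes. Rb1cc1, Atg13, Atg101, Gabarapl2, Pik3c3, Atg14, Wipi2, Wdr45b and the genes of the closing observations fall outside that rule and were named after their values were seen. Rows of Becn1, ratios between ATG8 genes, contrasts between trained groups and the blocked fit without single rats were added after seeing the data.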

Additional observations from a re-analysis of the deposited data

Results flagged for a closer look

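Tfeb was picked out because its level differed between the 4 trained groups (limma F test, adjusted p = 0.0481), with means of 25.2 ± 1.73, 22.6 ± 2.29, 21.6 ± 4.36 and 16.8 ± 2.57 (SD, n = 3 each) after 2, 10, 20 and 30 days. The means of the contralateral groups ran from 19.9 to 21.9, and no difference between them was detected (F test, unadjusted p = 0.863). The adjusted p was 0.00189 on the values as deposited and 0.469 for the difference between the muscles of a rat in the blocked fit. It was 0.0596 with a pseudocount of 0.1 and 0.0542 with the most abundant row per gene, and the test was not passed without any 1 of 9 of the 12 trained muscles (adjusted p up to 0.2496).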

How the results depend on the processing

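Under the alternatives, Gabarapl1 was higher and Ulk1 lower at every time point in each of them, and the calls of Gabarapl1 at 2, 10 and 20 days, of Ulk1 at 2 and 30 days and of Sqstm1 at 2 days were lost in none of them. Blocked fits with a rat of 2 days left out, described with the counts, were the exception: without rat 2 none of the 8 was called, and without rat 3 Sqstm1 was not. Blocked fits without a rat of the later time points were not run. The Ulk1 call at 30 days was close to the threshold with animal as a block (limma adjusted p = 0.0456). The number of members called at 2 days was 4, and with animal as a block (replicate block) it was 7, while the count over all genes went from 3235 to 2417. At 10 days it was 2, and 1 on the values as deposited. At 20 days it was 3, and 1 at an adjusted p of 0.01 or on the values as deposited. At 30 days it was 3, and 1 at an adjusted p of 0.01. Over the 12 pairs the number of members was 5, and 3 at an adjusted p of 0.01 or with the most abundant row per gene. The stricter threshold lowers the count over all genes as well, which is not given here for 30 days or the pairs. The 1 member that differed between trained groups became 0 at an adjusted p of 0.01, with a pseudocount of 0.1, with the most abundant row or with the replicate block, 2 in the gene-level table (Tfeb and Sqstm1) and 3 on the values as deposited (Gabarapl1 beside those). Leaving out 1 muscle or rat gave 3 to 5 members at 2 days, 2 to 3 at 10 days, 1 to 3 at 20 days (1 without trained rat 3), 1 to 3 at 30 days (1 without trained rat 2), 4 to 6 over the pairs, 0 to 2 for the test between trained groups and 0 to 0 for that between contralateral groups. Over all genes the counts were 1513 to 3505 at 2 days, 2147 to 3296 at 10 days, 1734 to 2500 at 20 days and 1472 to 2440 at 30 days. They were 4119 to 4401 over the pairs and 695 to 1614 between trained groups. The test between trained groups called 0 members without rats 2 or 3 of 2 days, 1 or 3 of 10 days, 1 of 20 days or 2 or 3 of 30 days, and 2 without rat 2 of 20 days. Without rat 1 of 2 days or 2 of 10 days the 1 member called was Sqstm1, not Tfeb. Becn1 lost its 20 day call without trained rats 2 (-0.23) or 3 (-0.29) of 20 days or the contralateral muscles of rats 1, 2 or 3 of 2 days, 1 of 10 days, 3 of 20 days or 2 of 30 days (-0.31 to -0.29), and its 30 day call without any 1 of the trained rats (-0.39 to -0.36); at 10 days it was called without the contralateral muscle of rat 3 of 10 days, 1 or 2 of 20 days or 1 or 3 of 30 days (-0.32 to -0.30). Without the contralateral muscle of rat 1 of 30 days, Becn1 at 2 days was also called (-0.28, limma adjusted p = 0.0470). Directions turned for uncalled values only: with the replicate block or time-matched controls, Map1lc3a was 0.10 and Map1lc3b 0.0401 at 20 days, and Map1lc3b 0.0987 and Bnip3 0.0401 at 30 days; Bnip3 at 30 days was 0.0360 in the gene-level table, and Sqstm1 at 30 days -0.12 on the values as deposited. With 1 muscle left out, Bnip3 at 30 days ranged from -0.10 to 0.12, Map1lc3a at 20 days from -0.24 to 0.17, Map1lc3b from -0.17 to 0.0502 at 20 days and -0.17 to 0.0244 at 30 days, and Tfeb at 20 days from -0.0856 to 0.19. On the values as deposited the median of all genes was 0.07, 0.07, -0.03 and -0.18 at the 4 time points. Against 28.9% of genes called at 2 days, or 3235, the count was 1958 at an adjusted p of 0.01 and 1513 without trained rat 2; in the gene-level table, which holds fewer genes in all, it was 1779. The causes of these changes were not tested.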

Other observations

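Among the transcription factors of the longer autophagy list, chosen here after their values were seen, Foxo1 averaged 4.86 ± 1.76 in the contralateral and 3.33 ± 2.06 in the trained muscles (SD, n = 12 each), a log2 difference over the pairs of -0.48 (limma with animal as a block, adjusted p = 0.00481). Foxo3 differed by -0.27 (adjusted p = 0.0421) and Zkscan3, a repressor of autophagy genes, by -0.28 (adjusted p = 0.0146), while Tfe3 (0.07, adjusted p = 0.508) and Mitf (-0.07, adjusted p = 0.248), the relatives of Tfeb, were not called. Foxo1 and Foxo3 were called at none of the single time points against all contralateral muscles (adjusted p from 0.0602 to 0.788), and with animal as a block Foxo1 was called at 10 days (-0.82, adjusted p = 0.0226). At the level of the ATG8 genes Gabarapl2 was higher over the pairs by 0.33 (adjusted p = 0.000344), and Vamp8, a fusion protein with a contralateral mean of 2.32 ± 1.52 (SD, n = 12), by 0.60 (adjusted p = 0.0294).

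Of the retained-intron rows of Becn1, Becn1-205 averaged 1.80 ± 0.898 in the contralateral and 1.02 ± 0.528 in the trained muscles (SD, n = 12 each), a difference over the pairs of -0.45 (limma over all rows, adjusted p = 0.0232). Becn1-202 (-0.07, adjusted p = 0.756) and Becn1-204 (0.04, adjusted p = 0.890) were not called.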
